A study of Mus musculus with 4 samples.

Results

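The ATP-sensitive potassium channel, the voltage-gated calcium channels and 4 further channel genes of the pancreatic islet are described here as 9 named genes: Abcc8, Kcnj11, Cacna1d, Cacna1c, Cacna1a, Trpm5, Kcnk16, Scn9a and Scnn1b. They were taken by symbol from the 32285 genes measured, and all 9 were found. Their transcripts were counted as unique molecular identifiers (UMIs, one per captured mRNA molecule) in 2 single-cell libraries of islets cultured with TCDD, an environmental dioxin that activates the aryl hydrocarbon receptor. One library came from Malat1-/- mice, which lack the nuclear long non-coding RNA Malat1, and the other from wild type mice, both of the C57BL/6 strain. The dose, the exposure time, the age of the mice and the number of mice pooled are not given in the sources used here. The series holds 4 samples. Its DMSO libraries were not used here, which leaves any effect of TCDD unmeasured, and each genotype is 1 library without a replicate. No test between genotypes was therefore possible: intervals below are 95% intervals that cover counting error only, and differences between animals, cultures and libraries cannot be told apart from genotype.

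Although beta cell is the labelled cell type, whole islets were dissociated, and marker genes separated several cell types. Of 3198 Malat1-null and 2166 wild type barcodes with at least 1000 UMIs, 2905 and 2074 were kept, and 2856 over both libraries were endocrine. Beta-like cells numbered 1752 in the Malat1-null library and 897 in the wild type library, with a median of 48283.5 and 61565 UMIs per cell, and all 10 beta markers were detected in both. In both libraries 8 of 10 alpha, 7 of 8 delta and 3 of 6 PP markers reached 20 CPM in the class of that name. Delta-like cells also reached it for 6 of 10 beta markers in the Malat1-null and 4 in the wild type library. These markers summed to 62870 and 61830 CPM there, against 638100 and 577600 in beta-like cells. Of 10 alpha markers, 4 and 3 reached it in delta-like cells, and alpha-like cells reached it for 4 of 10 beta markers in both libraries. PP-like cells reached it for 5 of 10 beta and 4 of 10 alpha markers in both libraries. Over all UMIs they had the glucagon gene Gcg at 8104 CPM in the Malat1-null and 19834 CPM in the wild type library. The pancreatic polypeptide gene Ppy stood at 26259 and 31091 CPM in delta-like cells, against 429262 and 359703 in PP-like cells. Alpha-like cells numbered 69 and 31, delta-like cells 43 and 21, and PP-like cells, which make pancreatic polypeptide, 18 and 25. Malat1 stood at 0.278 CPM over all UMIs among beta-like cells of the Malat1-null library, against 9714 CPM among those of the wild type library. The libraries shared 1 barcode, against 1.02 expected by chance. The insulin genes took 58.8% of all UMIs in Malat1-null beta-like cells and 51.6% in wild type beta-like cells, so levels are given in CPM after hormone, mitochondrial and Malat1 UMIs were left out, that is, as UMIs scaled to a sum of 1000000 over the remaining genes of a class and library. Levels of different genes are not compared with each other, because the 3-prime counts are not per length.

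In the beta cell, closure of the ATP-sensitive potassium channel by the ATP made from glucose depolarises the membrane, voltage-gated calcium channels open, and calcium entry releases insulin. Abcc8 encodes the sulfonylurea receptor and Kcnj11 the inward-rectifier pore of that channel. Cacna1d and Cacna1c encode the pores of L-type calcium channels and Cacna1a that of the P/Q-type channel. Trpm5 encodes a cation channel that calcium opens and that passes sodium and potassium. Kcnk16 encodes a tandem-pore-domain potassium channel of islet cells, Scn9a the pore of a voltage-gated sodium channel, and Scnn1b the beta subunit of the epithelial sodium channel. Loss of KATP channel function causes hyperinsulinism in people, and sulfonylurea drugs act on the same channel.

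All 9 are protein-coding genes in the GENCODE annotation of mm10. Abcc8 (ENSMUSG00000040136, chr7:46104523-46180033) and Kcnj11 (ENSMUSG00000096146, chr7:46093953-46100764) are neighbours on the minus strand, 3758 bases apart. Trpm5 (ENSMUSG00000009246, chr7:143069153-143094642, minus strand) and Scnn1b (ENSMUSG00000030873, chr7:121865038-121918514, plus strand) lie on the same chromosome. Cacna1d (ENSMUSG00000015968, chr14:30039939-30491455) and Kcnk16 (ENSMUSG00000023387, chr14:20261376-20269199) are on the minus strand of chromosome 14. Cacna1c (ENSMUSG00000051331, chr6:118587240-119196418, minus strand), Cacna1a (ENSMUSG00000034656, chr8:84388440-84640246, plus strand) and Scn9a (ENSMUSG00000075316, chr2:66480080-66634962, minus strand) are alone on theirs.

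The 250 bases before the RefSeq start are shown for 3 members whose levels separate beta-like cells from other endocrine cells, Trpm5 and Scnn1b because they were higher there and Kcnk16 because it was lower. They are from RefSeq promoters on mm10 (GRCm38.p6), at chr7:143094643-143094892 (minus strand), chr7:121864788-121865037 (plus strand) and chr14:20269270-20269519 (minus strand), read 5′ to 3′ along the gene. Capitals mark the motifs found.
Trpm5: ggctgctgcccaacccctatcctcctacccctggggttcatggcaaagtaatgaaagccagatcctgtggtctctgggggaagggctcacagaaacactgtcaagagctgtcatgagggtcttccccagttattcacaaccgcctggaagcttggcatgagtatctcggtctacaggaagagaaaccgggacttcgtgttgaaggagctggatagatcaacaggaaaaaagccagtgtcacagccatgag
Scnn1b: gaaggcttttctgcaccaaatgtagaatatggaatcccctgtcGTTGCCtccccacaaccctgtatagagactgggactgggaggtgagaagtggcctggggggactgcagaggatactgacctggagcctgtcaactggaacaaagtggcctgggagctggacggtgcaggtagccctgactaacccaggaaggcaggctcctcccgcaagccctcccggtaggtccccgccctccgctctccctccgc
Kcnk16: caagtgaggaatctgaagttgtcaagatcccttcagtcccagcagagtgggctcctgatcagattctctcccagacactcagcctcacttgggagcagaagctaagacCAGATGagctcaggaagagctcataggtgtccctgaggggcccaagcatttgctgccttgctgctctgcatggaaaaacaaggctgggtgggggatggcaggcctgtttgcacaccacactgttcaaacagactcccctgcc
Of the 9 genes, 6 had a promoter in that table. The letters TAATTA (the core read by homeodomain factors such as Pdx1), TGTTTAC (forkhead factors), CATCTG (an E-box of the NeuroD kind), TGCTGA (MAF factors) and GTTGCC (RFX factors) were searched on both strands. GTTGCC stood 207 bases before the Scnn1b start, and the reverse complement of CATCTG stood 142 bases before the Kcnk16 start. None of the 5 motifs was in the Trpm5 window. The shares of 32851 mouse promoters of the same length with each motif were 4.84% for TAATTA, 3.17% for TGTTTAC, 14.4% for CATCTG, 16.1% for TGCTGA and 10.4% for GTTGCC. A match describes letters and is not a bound site. The RefSeq start of Kcnk16 lies 70 bases upstream of the GENCODE start.

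The KATP channel genes were present in all 4 endocrine classes and were not highest in beta-like cells. Abcc8 had 415 CPM (interval 408 to 422) in Malat1-null beta-like cells and 405 (397 to 414) in wild type beta-like cells. In delta-like cells, which make somatostatin, it had 505 (451 to 563) in the Malat1-null library and 616 (538 to 702) in the wild type library. The beta-like level of Abcc8 was thus 0.822 times the delta-like level in the Malat1-null library (interval 0.736 to 0.921) and 0.658 times in the wild type library (0.576 to 0.755). Alpha-like cells, which make glucagon, had 458 (413 to 507) and 546 (488 to 609) Abcc8 CPM in the Malat1-null and wild type libraries, and PP-like cells 423 (350.2 to 507) and 394 (336 to 459). Delta-like and alpha-like intervals overlapped in both libraries, as did those of PP-like and beta-like cells.

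Kcnj11 had 57.0 CPM (54.5 to 59.7) in Malat1-null beta-like cells and 49.7 (46.9 to 52.7) in wild type beta-like cells. Its highest class differed between the libraries. It was the delta-like class in the Malat1-null library, at 100.3 (77.2 to 128), and the alpha-like class in the wild type library, at 94.1 (70.9 to 122). The wild type delta-like level was 60.5 (37.9 to 91.6) and the Malat1-null alpha-like level 56.3 (41.3 to 75.2), and the intervals of both overlapped that of beta-like cells. PP-like cells had 57.4 and 72.0 Kcnj11 CPM in the Malat1-null and wild type libraries. Per Abcc8 UMI, Malat1-null beta-like cells had 0.138 Kcnj11 UMIs and wild type beta-like cells 0.123. In the other endocrine classes this quotient lay between 0.123 and 0.199 in the Malat1-null library and between 0.0982 and 0.183 in the wild type library.

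**Figure D1:**
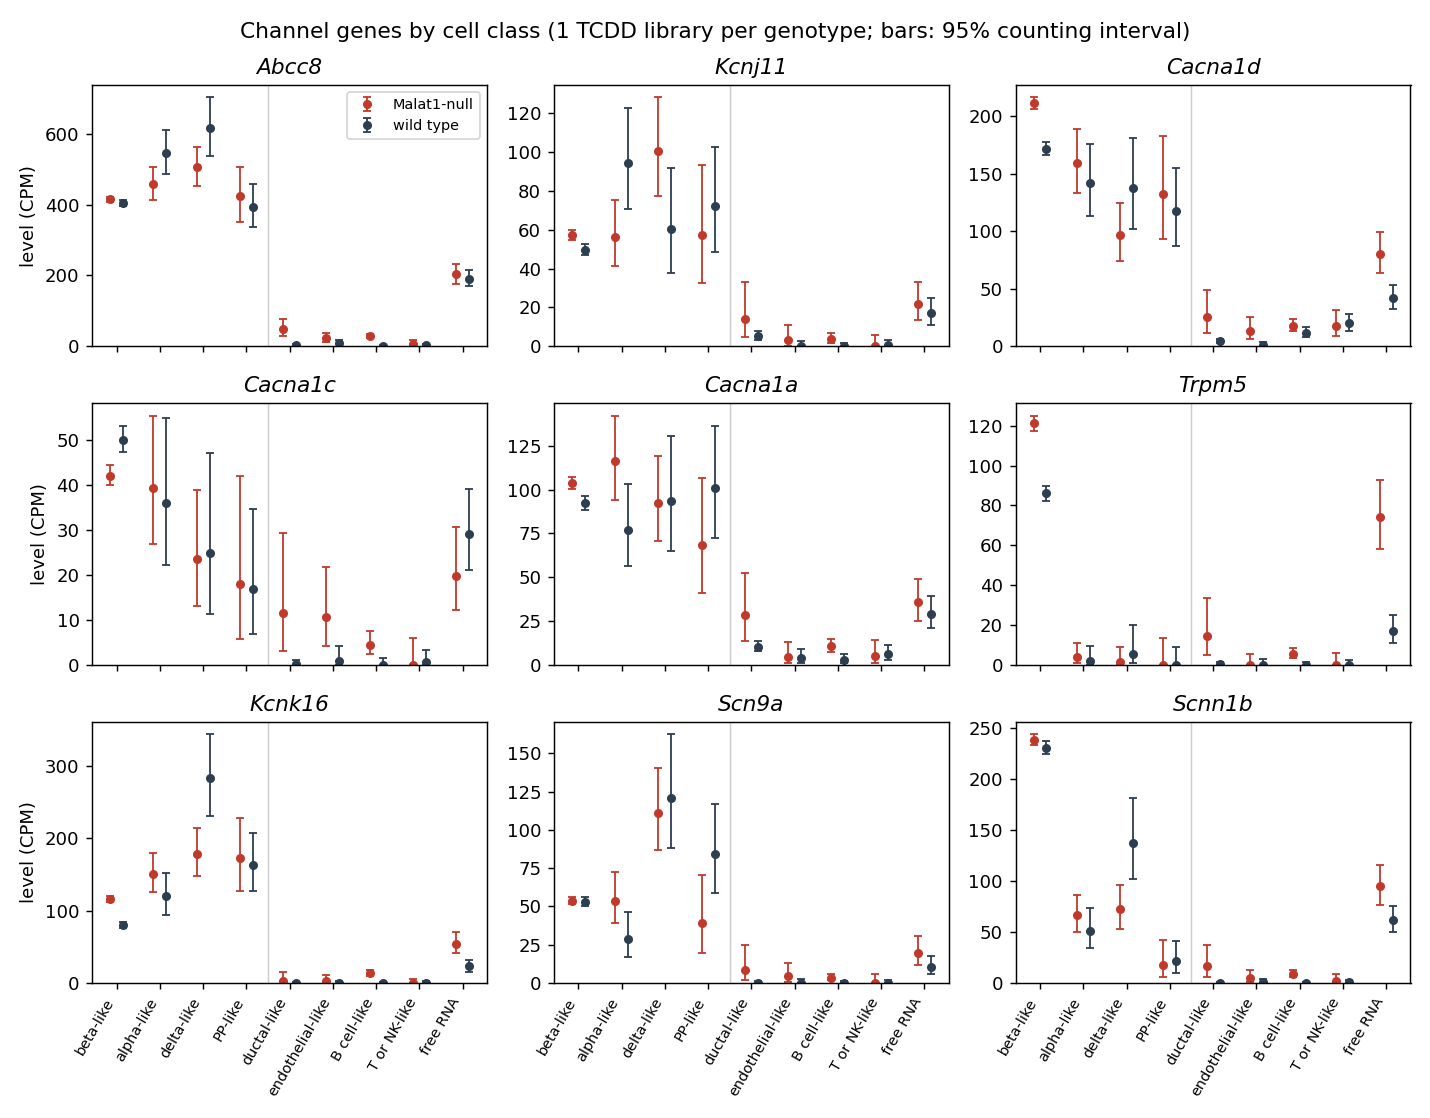
Level of each channel gene (CPM, linear axes from 0) in endocrine classes (left of the grey line), other classes and free RNA (barcodes of 10 to 100 UMIs), with Malat1-null points left of wild type points and bars for the 95% counting interval. Trpm5 is near 0 in alpha-like, delta-like and PP-like cells of both libraries, while Kcnk16 is higher in delta-like than in beta-like cells in both libraries.

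The pores of the L-type calcium channel had their highest level in beta-like cells in both libraries. Cacna1d had 211 CPM (207 to 217) in Malat1-null beta-like cells and 172 (167 to 177) in wild type beta-like cells. The lowest endocrine class was the delta-like class in the Malat1-null library, at 97.2 (74.5 to 125), and the PP-like class in the wild type library, at 118 (87.0 to 155). Against alpha-like cells, at 159 in the Malat1-null and 142 in the wild type library, the beta-like level was 1.33 times as high (1.12 to 1.59) in the Malat1-null library and 1.21 times (0.975 to 1.52) in the wild type library, so the wild type interval included 1. Cacna1c had 42.0 (39.8 to 44.3) in Malat1-null and 50.1 (47.2 to 53.0) in wild type beta-like cells. Its PP-like levels were 17.9 and 16.8 in the Malat1-null and wild type libraries, and the beta-like level was 2.34 times as high (1.00 to 7.23) in the Malat1-null library and 2.98 times (1.44 to 7.43) in the wild type library. Alpha-like levels of Cacna1c, 39.2 and 35.9, had intervals that overlapped those of beta-like cells in both libraries.

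Cacna1a, the P/Q-type pore, had overlapping intervals across the endocrine classes. It had 104 CPM (100.4 to 107) in Malat1-null and 92.2 (88.3 to 96.2) in wild type beta-like cells. The other classes lay between 68.1 and 116 in the Malat1-null library and between 77.0 and 101 in the wild type library, and each class overlapped with the next in the order. The order itself differed, with alpha-like cells highest in the Malat1-null and lowest in the wild type library.

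Trpm5 was nearly restricted to beta-like cells among the endocrine classes. It had 121 CPM (117 to 125) in Malat1-null beta-like cells, from 3966 UMIs, and 86.0 (82.2 to 89.9) in wild type beta-like cells, from 1972 UMIs. Alpha-like cells had 3 UMIs in the Malat1-null and 1 in the wild type library, delta-like cells 1 and 2, and PP-like cells 0 and 0. The beta-like level was 33.0 times the alpha-like level (11.3 to 160) in the Malat1-null library, and 50.3 times (9.01 to 1986) in the wild type library. Against PP-like cells it was at least 11.3-fold higher in the Malat1-null and at least 11.9-fold higher in the wild type library, with PP-like cells set at a floor of 3 UMIs per library.

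At its 3-prime end Trpm5 overlaps Tssc4, a gene on the opposite strand, and the sources used here do not say whether the counts used strand. Tssc4 had 199 CPM in Malat1-null beta-like cells and 129 in wild type beta-like cells. In alpha-like cells Tssc4 had 35.5 and 27.4, in the Malat1-null and wild type libraries, where Trpm5 had 3.67 and 1.71. Any part of Tssc4 in the Trpm5 counts of beta-like cells was not tested. Scnn1b likewise overlaps Cog7 on the opposite strand, which had 53.3 and 46.8 CPM in Malat1-null and wild type beta-like cells and 56.3 and 51.3 in alpha-like cells.

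Kcnk16 showed the opposite order, with beta-like cells lowest and delta-like cells highest in both libraries. It had 116 CPM (112 to 120.0) in Malat1-null beta-like cells and 80.2 (76.6 to 83.9) in wild type beta-like cells, against 179 (147 to 215) and 283 (231 to 344) in the delta-like cells of the same libraries. Delta-like cells thus had 1.54 times the beta-like level in the Malat1-null library (1.27 to 1.86) and 3.53 times in the wild type library (2.87 to 4.31). Alpha-like cells had 151 and 120 CPM in the Malat1-null and wild type libraries, and PP-like cells 172 and 163. The intervals of PP-like and alpha-like cells overlapped in both libraries.

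The sodium channel genes went different ways. Scnn1b was highest in beta-like cells, at 238 CPM (233 to 244) in the Malat1-null and 230.3 (224 to 237) in the wild type library. Its PP-like levels were 17.9 (5.82 to 41.8) and 21.6 (9.88 to 41.0), which puts the beta-like level 13.3 times (5.69 to 40.9) and 10.7 times (5.61 to 23.3) as high in the Malat1-null and wild type libraries. In delta-like cells Scnn1b had 72.1 (52.8 to 96.2) in the Malat1-null and 138 (102 to 181) in the wild type library. Scn9a was highest in delta-like cells, at 111 (86.9 to 140.4) in the Malat1-null library and 121 (87.9 to 162) in the wild type library. Beta-like cells had 53.8 (51.3 to 56.4) and 52.9 (49.99 to 56.0) Scn9a CPM, and delta-like cells 2.07 times (1.61 to 2.62) and 2.29 times (1.65 to 3.09) that level, in the Malat1-null and wild type libraries. Only the wild type PP-like level of Scn9a, 84.0 (58.5 to 117), overlapped the delta-like interval.

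Cacna1d, Cacna1c, Trpm5 and Scnn1b were therefore the 4 of 9 genes with their highest endocrine level in beta-like cells of both libraries, beside 21.0% of the 5923 genes whose mean level over the 4 classes was at least that of the lowest of the 9. That share includes the genes that formed the classes. With a barcode minimum of 0.1 of the 99th percentile Cacna1c was not among them, which left 3. With each library clustered alone Scn9a joined them, but the wild type library then had no named endocrine class beside beta-like cells. That setting therefore compares classes in the Malat1-null library only, with alpha-like and PP-like cells, and cannot show the wild type order. With all UMIs in the denominator, hormone transcripts included, 1 gene remained highest there, Trpm5. The UMIs left out made up 64.9% of the total in Malat1-null and 59.9% in wild type beta-like cells, against 24.3% and 28.6% in alpha-like cells.

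Outside the endocrine classes the 9 genes were low, and their UMIs there were set against free RNA, read from barcodes of 10 to 100 UMIs. Free RNA held Abcc8 at 203 CPM in the Malat1-null and 191 in the wild type library, and Trpm5 at 74.1 and 16.9. B cell-like cells had 92 Abcc8 UMIs in the Malat1-null and 2 in the wild type library, where insulin took 7.09% and 0.102% of all their UMIs. The 92 UMIs were in 13 of 311 cells, with up to 15 in a cell. Free RNA scaled to the insulin UMIs of the class would give 45.3 in the Malat1-null and 1.55 in the wild type library. Ductal-like cells of the wild type library stood apart from free RNA: they had 26 Kcnj11 and 19 Abcc8 UMIs, 1.37 Kcnj11 UMIs per Abcc8 UMI, against 0.0887 in the free RNA of that library. The same cells had 50 Cacna1a UMIs, 2.63 per Abcc8 UMI, against 0.152 in free RNA. T or NK-like cells had 11 Cacna1d UMIs in the Malat1-null and 33 in the wild type library beside 4 Abcc8 UMIs in each, and their Cacna1d level was 17.8 (8.87 to 31.8) and 19.9 (13.7 to 28.0) CPM.

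Between genotypes, no channel gene of the 9 was 1.5-fold apart in beta-like cells. A gene was called apart at a ratio of at least 1.5-fold either way with at least 100 UMIs over both libraries, a rule met by 7.68% of 11895 genes, 3.14% higher and 4.54% lower in the Malat1-null library. All 9 had enough UMIs, 0 were called, and their median log2 ratio was 0.17, against 0.018 over all genes. The largest ratio of Malat1-null over wild type was that of Kcnk16, 1.45 (interval 1.37 to 1.53), and Trpm5 followed at 1.41 (1.33 to 1.49). The Kcnk16 interval reached past 1.5-fold, and with called doublets kept its log2 ratio was 0.62 and the gene was apart. Tssc4, which overlaps Trpm5, had a ratio of 1.55 (1.48 to 1.62) in the same cells, and its part in the Trpm5 ratio was not tested.

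Among the calcium channel pores, Cacna1d had a ratio of 1.23 (1.18 to 1.28) and Cacna1a of 1.13 (1.07 to 1.19), while Cacna1c was the 1 gene lower in Malat1-null beta-like cells, at 0.840 (0.776 to 0.909). The Cacna1a ratio changed direction with all UMIs in the denominator, to a log2 ratio of -0.02, a scaling that moved the median over all genes to -0.18. Kcnj11 had a ratio of 1.15 (1.07 to 1.24) beside 1.02 (0.997 to 1.05) for its partner Abcc8. Scnn1b had a ratio of 1.03 (0.999 to 1.07) and Scn9a of 1.02 (0.945 to 1.09), and both intervals included 1, as that of Abcc8 did. With all UMIs in the denominator their log2 ratios were -0.14 for Scnn1b, -0.17 for Scn9a and -0.16 for Abcc8, near the shifted median of all genes. The clusters that held most beta-like cells differed, since 667 of 1752 Malat1-null cells were in the cluster led by Slc2a2, Ppp1r1a and Fkbp1b and 430 of 897 wild type cells in the one led by Pdyn, Serpina7 and Ttyh1.

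**Figure D2:**
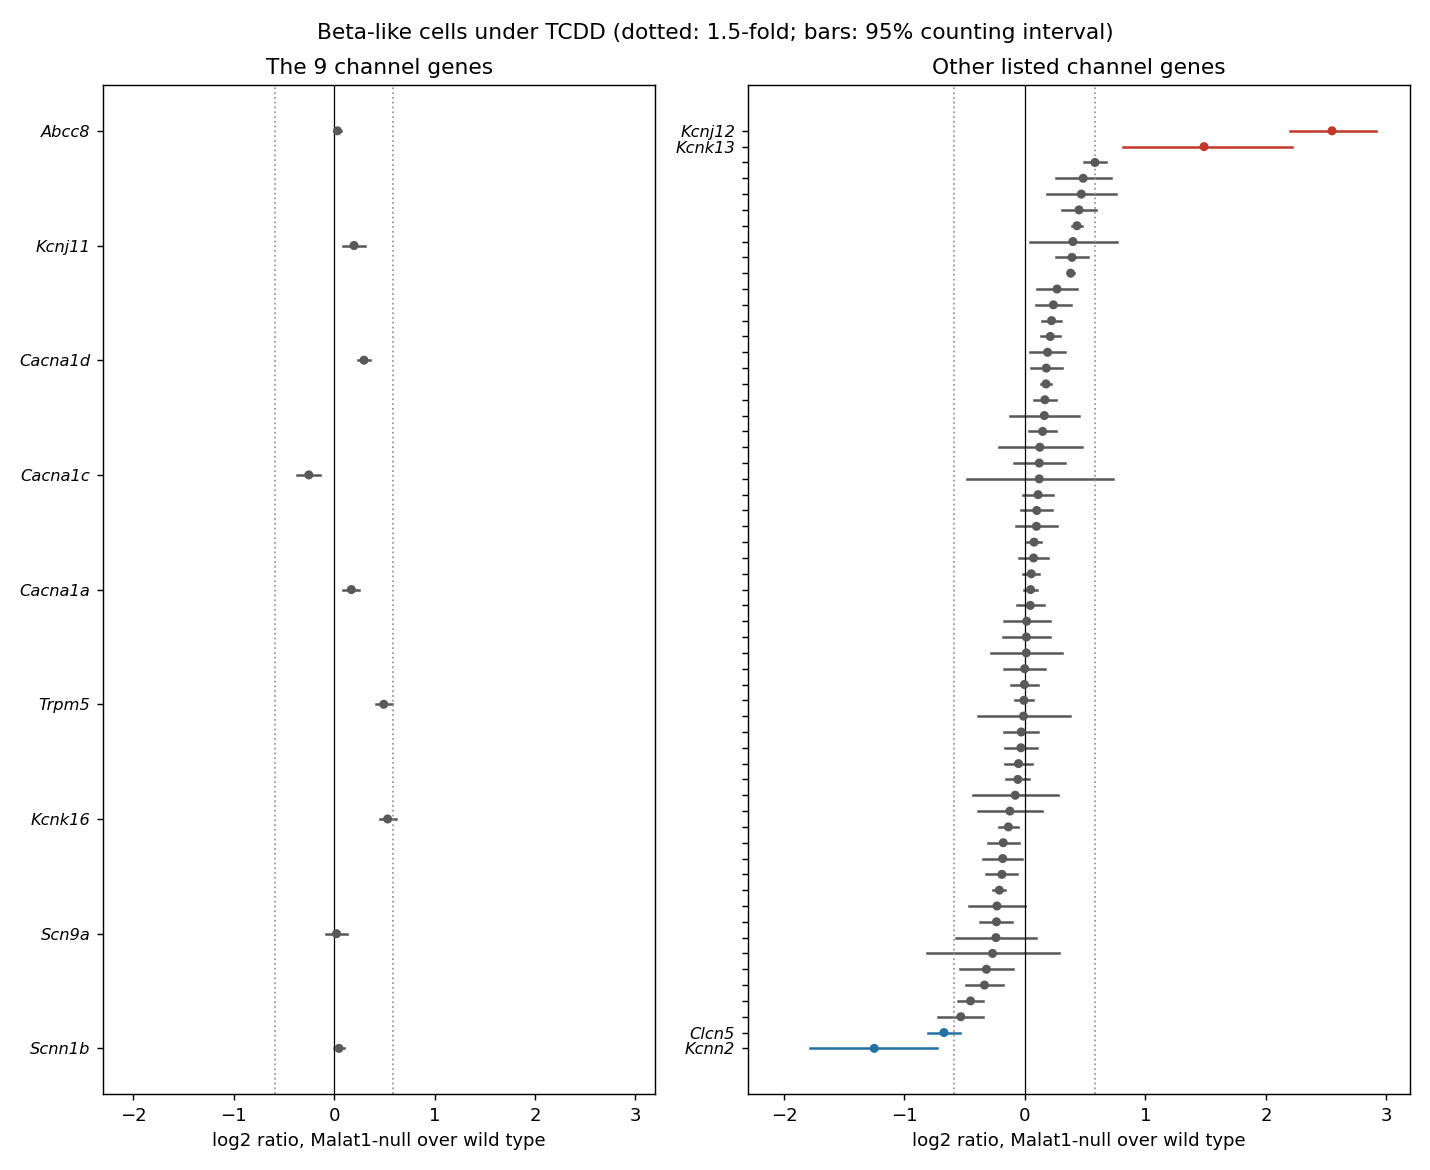
Log2 ratio of the level in Malat1-null over wild type beta-like cells for the 9 channel genes (left) and for other listed channel genes with at least 100 UMIs (right, labelled where apart), with bars for the 95% counting interval and dotted lines at 1.5-fold. The points of the 9 genes lie inside the dotted lines, and the bar of Kcnk16 reaches past the upper line. Of the other genes shown, the points of Kcnj12 and Kcnk13 lie above the lines and those of Kcnn2 and Clcn5 below.

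Shares of cells were compared at an equal number of all UMIs, with hormone, mitochondrial and Malat1 UMIs included. Those UMIs made up 64.9% of the total in Malat1-null and 59.9% in wild type beta-like cells. In alpha-like cells they made up 24.3% and 28.6%, and in T or NK-like cells 4.28% and 5.16%. Thinned shares are therefore not at equal depth in the remaining genes, on which the levels are based. With every cell thinned to 5000 UMIs, which left out 41 Malat1-null and 13 wild type beta-like cells below that depth, 52.2% of Malat1-null and 54.3% of wild type beta-like cells had an Abcc8 UMI, against 97.5% and 97.7% without thinning. In T or NK-like cells, which should lack the gene and had a median of 3388.5 and 5107 UMIs, the thinned share was 2.55% over 38 Malat1-null cells and 0.958% over 152 wild type cells that reached 5000 UMIs. The thinned share with a Trpm5 UMI was 18.3% in Malat1-null and 15.5% in wild type beta-like cells, against 72.4% and 70.1% without thinning, and in alpha-like cells, with a median of 15338 and 26107 UMIs, the thinned share was 1.63% in the Malat1-null and 1.12% in the wild type library. Trpm5 varied from cell to cell more than depth alone gives. Of beta-like cells, 27.6% in the Malat1-null and 29.9% in the wild type library had no Trpm5 UMI, where an even spread over cells of these depths would leave 16.8% and 15.2%. The squared deviation of Trpm5 from that even spread was 2.42 times the Poisson value in the Malat1-null and 2.92 times in the wild type library, with 1 as the value for counting error alone. For all 9 genes it was above 1 in both libraries. It was 2.15 and 3.11 for Abcc8, 2.00 and 3.27 for Kcnk16, 2.24 and 3.14 for Scnn1b, and 1.22 and 1.34 for Cacna1c. Because it also depends on the mean count of a gene, it does not rank the genes.

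Part of that spread lay between beta-like clusters, which were formed without the 9 genes. Over clusters of at least 20 cells, the highest level was at least 1.5 times the lowest in both libraries for 8 of the 9 genes, all but Scn9a, beside 30.6% of the 4325 genes with at least as many UMIs in beta-like cells as the lowest of the 9, genes that formed the clusters included. At Leiden resolution 2 this held for 9 of the 9, Scn9a included, a setting for which the share of all genes was not computed. The cluster led by the heat-shock genes Hspa1a, Hspa1b and Hspb1 held 69 Malat1-null and 128 wild type cells and had the lowest level of Abcc8, Kcnj11, Cacna1d, Cacna1c, Cacna1a and Scnn1b in both libraries, 6 of the 9, beside 28.6% of the same 4325 genes. Abcc8 stood there at 243 CPM in the Malat1-null and 204 in the wild type library, and Scnn1b at 106 and 119. In the Malat1-null library the highest Abcc8 level was 453, in the Pdyn, Serpina7 and Ttyh1 cluster, and in the wild type library it was 538, in 25 cells led by Crybb3, Wdcp and Fos.

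Trpm5 took opposite ends in that heat-shock cluster. It had 69.8 CPM (56.1 to 85.8) there in the Malat1-null library, the lowest of its 6 clusters, and 152 (139 to 167) in the wild type library, the highest of 6. Its ratio of Malat1-null over wild type was 0.458 (0.362 to 0.576) in that cluster, 1.79 (1.49 to 2.15) in the cluster led by Cebpd, Gem and Nfkbia, and 1.76 (1.54 to 2.02) in the one led by Slc2a2, Ppp1r1a and Fkbp1b. Over the 5 clusters with enough cells in both libraries, Trpm5 was higher in the Malat1-null library in 3. Kcnk16 was higher in 4 of the 5, with ratios between 0.974 and 2.17, and the largest, 2.17 (1.71 to 2.74), was in the heat-shock cluster. Cacna1d was higher in the Malat1-null library in 5 of 5, with ratios between 1.08 and 1.48, while Cacna1c was higher in 1 of 5 and Scnn1b in 1 of 5. The Cacna1d interval in the Slc2a2, Ppp1r1a and Fkbp1b cluster included 1 (0.984 to 1.19). The Cacna1c interval lay below 1 only in the heat-shock cluster and the Cebpd, Gem and Nfkbia cluster. That of Scnn1b did so only in the Slc2a2, Ppp1r1a and Fkbp1b cluster and the Pdyn, Cartpt and Serpina7 cluster. The 5 clusters share the same 2 libraries and are not replicates. Their ratios come from 1 clustering and were not recomputed in the alternative settings. The Trpm5 ratio of the heat-shock cluster rests on 90 Malat1-null and 471 wild type UMIs.

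**Figure D3:**
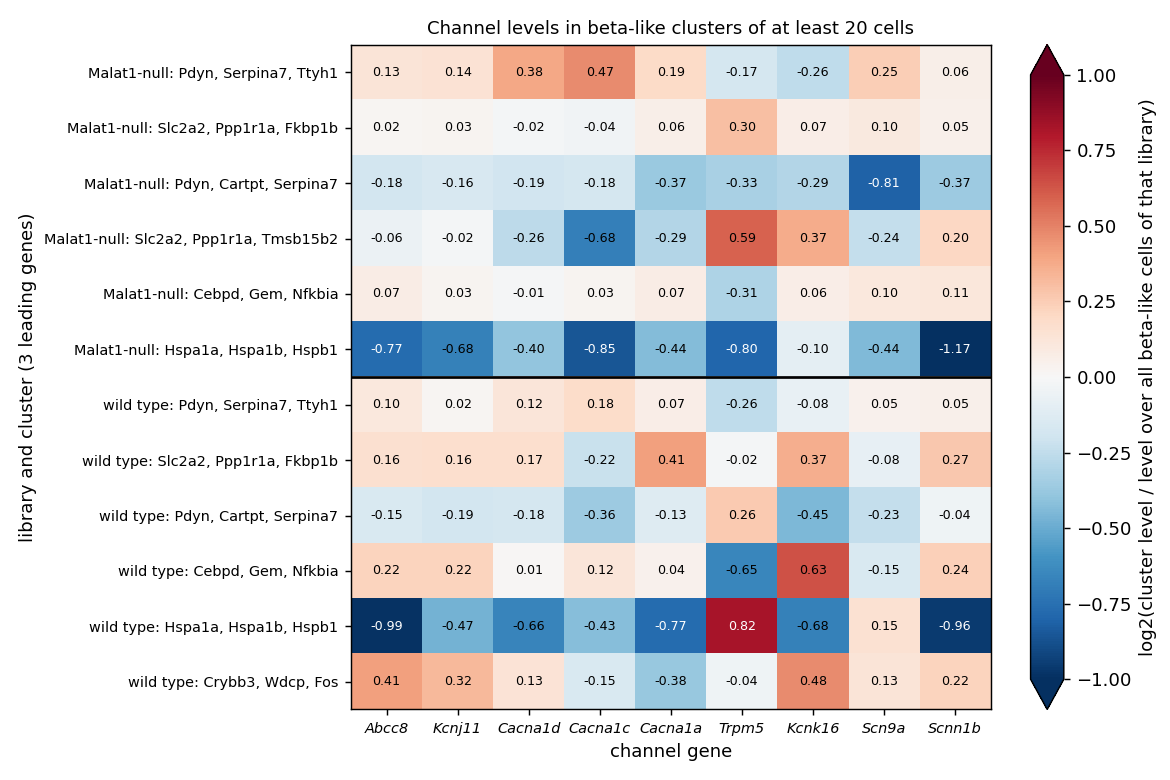
Log2 of the level in each beta-like cluster over the level in all beta-like cells of the same library (colour and printed value), for clusters of at least 20 cells named by 3 leading genes, with Malat1-null clusters above wild type clusters. The heat-shock cluster is blue for most genes in both libraries, and its Trpm5 value is -0.80 in the Malat1-null and 0.82 in the wild type library.

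In the rarer endocrine classes the counts were small and the calls few. In alpha-like cells 5 of the 9 genes had 100 UMIs, and 2 were 1.5-fold apart, beside 9.92% of 2571 genes (6.42% higher and 3.5% lower in the Malat1-null library). Kcnj11 had 56.3 CPM, from 46 UMIs, in Malat1-null alpha-like cells, against 94.1, from 55 UMIs, in wild type alpha-like cells, a ratio of 0.599 (0.396 to 0.902). Cacna1a had 116 in Malat1-null and 77.0 in wild type alpha-like cells, a ratio of 1.51 (1.05 to 2.21). Cacna1a was not apart with TMM scaling or a minimum of 5000 UMIs, Kcnj11 was not apart at Leiden resolution 2, and neither gene was apart with the percentile minimum or with classes set by the dominant hormone. A call needs both the fold and 100 UMIs, and which of them fell short in the runs that changed the cells was not recorded. Of the 69 Malat1-null alpha-like cells, 65 were in 1 cluster that held 4 wild type cells, and 27 of the 31 wild type cells were in another cluster that held 4 Malat1-null cells, so genotype and cluster cannot be told apart in this class. In delta-like cells 4 genes had enough UMIs and 1 was apart, Kcnk16, with a ratio of 0.631 (0.479 to 0.831), beside 7.7% of 1988 genes (3.97% higher and 3.72% lower). With all UMIs in the denominator, or with classes set by the dominant hormone, Kcnk16 was not apart in this class. The dominant hormone left 16 Malat1-null and 10 wild type delta-like cells, and whether ratio or UMIs fell short there was not recorded. The glucagon gene Gcg stood at 6377 CPM over all UMIs in Malat1-null and 35.3 in wild type delta-like cells, and the 10 alpha markers summed to 7004 and 284.6 CPM, with 4 and 3 of them at 20 CPM or more and 0 and 3 listed at 0, in the Malat1-null and wild type libraries. Their part in the Kcnk16 ratio was not tested. In PP-like cells the 2 genes with enough UMIs, Abcc8 at 1.07 (0.841 to 1.37) and Kcnk16 at 1.05 (0.713 to 1.55), were not apart, beside 6.66% of 1276 genes (3.61% higher and 3.06% lower).

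Of 110 other channel genes on the list, 62 had enough UMIs in beta-like cells, 4 were apart with higher levels and 3 with lower levels in the Malat1-null library, and their median log2 ratio was 0.05. Over all 11895 genes the shares were 3.14% higher and 4.54% lower. Kcnj12, an inward-rectifier potassium channel, had 18.9 CPM in Malat1-null and 3.23 in wild type beta-like cells, a ratio of 5.85 (4.59 to 7.55). Kcnk13, a tandem-pore-domain potassium channel, had 2.81 in Malat1-null and 1.00 in wild type beta-like cells, a ratio of 2.80 (1.76 to 4.64).

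Among the lower genes were Kcnn2, a calcium-gated potassium channel, with a ratio of 0.420 (0.291 to 0.602), and Clcn5, a chloride-proton exchanger, at 0.628 (0.574 to 0.687). Kcnk13 and Kcnn2 stayed past 1.5-fold, at log2 ratios of 1.87 and -1.39, with each library clustered alone, but had fewer than 100 UMIs there and so were not apart. The same held over barcodes of 20000 to 80000 UMIs, and neither had the UMIs for a minimum of 200. Clcn5 was not apart with each library clustered alone, at a log2 ratio of -0.42 against -0.67, or at 2-fold, while Kcnj12 was apart in every alternative run. None of the 4 auxiliary calcium channel subunits with enough UMIs was apart, and their median log2 ratio was 0.05. Of 14 genes for calcium stores and their refilling 0 were apart, with a median log2 ratio of 0.14, and of 10 chloride and anion channel genes 1 was lower. Beside these small lists, 7.68% of all 11895 genes were apart either way.

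The genes most like each member were read from the correlation of log2 levels over 18 sums of class and library with at least 20 cells, across 7296 genes. These points share libraries and the contrast of endocrine with other cells, so the correlations are descriptions. Abcc8 was closest to Unc80, which encodes a subunit of a sodium leak channel complex (r = 0.995), then Lrp11 and Pnmal2. Trpm5 was closest to 2410021H03Rik (r = 0.980), Tmem215 and Aldh1l2, and Scnn1b to Btbd17 (r = 0.981), Gsdma and Pnmal1. Kcnk16 was closest to Pcsk2os1 (r = 0.987), Scn3a, a sodium channel pore, and Cacnb2, a calcium channel subunit. Scn9a was close to Isl1 (r = 0.986), which encodes an islet transcription factor, and to Pex5l. Kcnj11 was closest to 5330417C22Rik (r = 0.986), Rims2, which acts in vesicle release, and C1qa, a complement gene. Unnamed cells were not among the 18 sums. They include a cluster led by Cxcl2, Lyz2 and C1qb, whose best class score was that for macrophages. The likeness of C1qa to Kcnj11 therefore holds for the named classes only and leaves those cells out. Cacna1d was closest to Zcchc18 (r = 0.978), Rundc3a and Bex3, Cacna1a to Map2 (r = 0.983), Dnmt3a and Mapre3, and Cacna1c to Ids (r = 0.964), Acly and Uqcc2.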

How the data were processed

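Libraries were made with the 10x Genomics 3-prime kit, version 3 chemistry per the labels. The deposited values were raw UMI counts per gene and barcode with no barcode filter, from Cell Ranger 4 per the file headers, whereas the submitters' processing notes name Cell Ranger 2.1.0 and mm10. The strand setting of the counting is not given in the sources used here. Total depth was 134950186 UMIs in the Malat1-null and 81872519 in the wild type library.

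The 9 genes and the lists of markers and other channel genes were chosen with earlier results of these data known. Barcodes with at least 1000 UMIs were used. Those with a mitochondrial share above 20% (286 Malat1-null and 69 wild type) and Scrublet doublets (7 and 23) were removed, and how many doublets remain is not known. Clustering in scanpy 1.11.5 used 2000 variable genes, 30 principal components, 15 neighbours and Leiden resolution 1, without the 9 genes, 110 other channel genes, Malat1, sex-linked and mitochondrial genes and without batch correction. A cluster was named from 15 marker lists when its class score reached 0.6 and at least 3 markers reached 20 CPM. Clusters with insulin beside another class, with several hormones, with leading markers of another class, or with low UMIs and no leading marker stayed unnamed (436 Malat1-null and 100 wild type cells); the limit of 10% for several hormones was chosen once a first clustering was known.

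UMIs were summed per class and library. Levels have exact Poisson intervals, ratios exact conditional intervals and shares were thinned to 5000 UMIs as exact hypergeometric expectations (scipy 1.17.1). Intervals and floors (3 UMIs) cover counting error only. The code was tested on simulated data. Genes named were all 9 members, the other channel genes called apart in beta-like cells (at most 12), and 3 genes most like each member, with 10 added before log2 and a level of 50 reached in at least 1 sum; some genes this rule names are not reported here. Alternatives changed the scaling (total counts, or TMM from edgeR 4.0.16), the barcode minimum, doublets, class rule, clustering, depth range, fold and UMI limit. GENCODE M21 held 32235 of the 32285 identifiers.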

Additional observations from a re-analysis of the deposited data

Results flagged for a closer look

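The ratio of Malat1-null over wild type for Kcnj11 was 0.599 in alpha-like cells and 1.15 in beta-like cells, on opposite sides of 1. The beta-like value was not apart at 1.5-fold, and the alpha-like value was not apart at Leiden resolution 2, with the percentile minimum or with classes set by the dominant hormone. The alpha-like value rests on 46 Malat1-null and 55 wild type UMIs, and in that class genotype and cluster cannot be told apart. The difference between the classes was not tested, since each genotype is 1 library.

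For Kcnk16 the ratio of Malat1-null over wild type was 0.631 in delta-like cells and 1.45 in beta-like cells, again on opposite sides of 1. The beta-like value was not apart at 1.5-fold, and the delta-like value was not apart with all UMIs in the denominator or with classes set by the dominant hormone. The delta-like value rests on 114 Malat1-null and 103 wild type UMIs. The dominant hormone left 16 Malat1-null and 10 wild type delta-like cells, and whether ratio or UMIs fell short there was not recorded. The difference between these classes was not tested either.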

How the results depend on the processing

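No paired analysis was possible because each genotype was 1 library. With all UMIs in the denominator, 1 gene in place of 4 was highest in beta-like cells in both libraries (3 with the percentile minimum described below), 0 of the 9 were apart in delta-like cells, and the log2 ratio of Cacna1a in beta-like cells turned to -0.021, against 0.17. With each library clustered alone 5 genes were highest in beta-like cells, but the wild type library then had no other named endocrine class to compare. In beta-like cells 1 gene, Kcnk16, was apart in place of 0 under a barcode minimum of 0.1 of the 99th percentile, with doublets kept, with classes set by the dominant hormone and with each library clustered alone, and 2, Kcnk16 and Trpm5, at a lower fold limit. In alpha-like cells the count of 2 became 1 with TMM scaling and a minimum of 5000 UMIs (Kcnj11) and at Leiden resolution 2 (Cacna1a), 3 at 50 UMIs (Scn9a added) and at the lower fold limit (Kcnk16 added), and 0 with the percentile minimum, with the dominant hormone, at 200 UMIs and at 2-fold. In delta-like cells the count of 1 became 2 with the percentile minimum, with doublets kept and at the lower fold limit, 3 at 50 UMIs and 0 at 2-fold, and with the dominant hormone the 1 gene was Abcc8 in place of Kcnk16. The count of 7 other channel genes in beta-like cells became 4 at 200 UMIs and 18 at the lower fold limit. The causes were not tested beyond what each setting itself changes. No value could be had for delta-like cells at a minimum of 5000 UMIs, at resolution 2 or with libraries clustered alone, nor for alpha-like and PP-like cells with libraries clustered alone, because the class then lacked named cells in at least 1 library. Alone, 240.0 wild type cells were named beta-like in place of 897. Precision is limited by few cells: the 9 genes had 0 to 374 UMIs in any other endocrine class of either library.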
